A study of Mus musculus with 8 samples.

Results

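The genes described here encode proteins of the extracellular matrix that cells adhere to, or that tune this adhesion: the tenascins Tnc and Tnxb, the thrombospondins Thbs1 and Thbs2, periostin (Postn), fibronectin (Fn1), versican (Vcan), Sparc, F-spondin (Spon1) and Abi3bp. They were taken by symbol, as every probe set whose platform annotation names 1 single gene of these 10. They are 10 of 18193 genes with a probe set of their own, and they have 28 of the 45037 probe sets on the array that are not controls. The genes were selected on their protein family from earlier results of the same arrays, in which male-minus-female values of Abi3bp and Tnc had already been seen. All differences between the sexes below are therefore descriptions. The word "called" marks a probe set with an adjusted p under 0.05 in a limma fit over the whole array, and it is not an independent test of these genes. The tissue was the microdissected region of the genital tubercle, from which penis and clitoris develop, from FVB/N mouse embryos at 14 days post coitum (Theiler stage 22). There were 4 male and 4 female samples, each 1 unpooled sample on its own Affymetrix MOE430 array after 2 rounds of RNA amplification. The groups shared strain, stage and dissection and carried no treatment or engineered allele that the labels name.

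Matricellular proteins are secreted into the matrix without being its main structural fibres, and they change how cells attach, spread and receive growth factors. Fibronectin fibrils are a scaffold on which other matrix proteins assemble, and integrins on the cell surface read them. Versican swells the embryonic matrix by binding hyaluronan, while tenascin C, thrombospondins and Sparc loosen attachment, and periostin links collagen, fibronectin and tenascin C. In limb, skin and genital mesenchyme such proteins are made mostly by fibroblast-like cells, tendon, muscle connective tissue and perichondrium.

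The arrays had been scaled to a common 2%-trimmed mean of 1500, and median intensity was 184.4 to 206.6 in females and 211.7 to 249.4 in males. The number of arrays limits the precision, and the spread between samples may be technical in part. The labels do not say whether samples came from separate litters. The spread within a sex may therefore leave out differences between litters, and litter may go with sex. Eif2s3y, a Y-linked gene, read 31.1 to 70.9 in females and 4109 to 6136 in males, and Xist, the RNA of the inactive X chromosome, read 32465 to 35816 in females. Male replicate 3 stood apart with an Xist intensity of 16036, against 230.0 to 619.6 in the other males. The 3' control probe set for 18S ribosomal RNA lay at 8332 to 18926 in females and 21050 to 33634 in males. The two-sided exact permutation p was 0.0286, which is the minimum for 4 arrays against 4 (0.0571 after adjustment over 4 measures). The middle 18S probe set overlapped, with 19362 to 35425 and 25081 to 41664. The ratio of the 3' to the 5' Actb control, a measure of how far the labelled RNA reaches towards the 5' end, was 6.47 to 8.54 in females. In males it was 5.30 and 5.60 in replicates 1 and 3 and 7.94 and 9.04 in replicates 2 and 4 (two-sided exact permutation p between the sexes, 0.686). The tissue label was borne out by Hoxd13 and Isl1 (36381 ± 1956 and 33690 ± 2714 in females, SD, n = 4), although Hoxa13 lay below the intensity filter. Of 9 tested tubercle markers 1 was called higher in males and 5 in females, each marker by its brightest tested probe set. Across all genes 14% were called higher in males and 28.2% higher in females on that probe set.

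Marker RNA of some other cell types of the dissected region differed with sex as well, although not all genes of a list moved alike. Over 12 skeletal muscle markers the summed intensity was 6863 to 16624 in females and 19850 to 30826 in males, with 7 of 8 tested markers called higher in males. Over 9 cartilage markers it was 5904 to 6440 and 8659 to 14692, with 3 of 6 called higher in males, and over 8 tendon and perichondrium markers 30776 to 34701 and 35037 to 37934, with 2 of 7 called higher in males and 1 in females. Macrophage markers summed to 4651 to 5427 and 5965 to 7049 (2 of 6 called higher in males, 1 in females). In the tendon list Tnmd (0.96) and Kera (0.77) were called higher in males and Fmod (-0.68) lower. Tnmd passed the intensity filter only through its level in males (mean 377.0, against 184.9 in females). Scx and the brightest tendon marker, Col14a1, were not called. In the macrophage list Csf1r (0.38) and Mrc1 (0.67) were called higher in males and Cd68 (-0.88) lower, and Adgre1, Fcer1g and Tyrobp were not called. The 2 other tested Csf1r probe sets had the opposite sign and were not called. Cd68 passed the intensity filter only through its level in females. The blood endothelial sum (10570 to 12385 against 12031 to 14817; 3 of 8 higher in males, 1 in females) and the smooth muscle and pericyte sum (18671 to 23710 against 15917 to 20450; 2 of 8 and 1) overlapped between the sexes. All these counts stand beside 14% of all genes called higher in males and 28.2% higher in females. No marker was at 0, but Matn1, Matn3 and Cnmd of cartilage, Chad of tendon and Myf5, Myh8, Tnnt3 and Tnnc2 of muscle lay below the filter. So did Aif1 and C1qa of macrophages, Tie1 of blood endothelium and Cnn1 of smooth muscle. Among all of these, Matn3, Aif1, C1qa and Tie1 had lower mean intensities in males, and the others had higher ones. The part of these cell types in the values below was not tested, and in bulk tissue fewer cells of a type cannot be told apart from less RNA per cell.

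Tenascin C and Sparc read lower in males on their brightest probe sets, and Abi3bp, periostin and both thrombospondins read higher. Fibronectin and versican, the brightest genes of the group, read slightly lower in males there. Probe sets with a mean log2(intensity + 16) of at least 7.77, the median over the array, were tested: 19 of the 28, for 9 of the 10 genes. Of these, 12 were called, 8 with males above females and 4 with females above males, and 7 were not. Over all 22519 tested probe sets 40.5% were called, 18.7% with a higher male and 21.9% with a higher female level. Male and female intensities did not overlap for 8 member probe sets, 6 with the males above, beside 37.1% of all tested probe sets. The median male-minus-female difference was 0.43 over the tested member probe sets and -0.01 over all tested probe sets. Counted by the brightest tested probe set, 4 genes were called with males higher and 4 with females higher, and Spon1 was not called, with a median of 0.13 beside -0.12 over all genes. Across all genes 42.2% were called on that probe set, 14% with males higher and 28.2% with females higher. The choice of members used this comparison, so nothing is read from these shares.

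**Figure D1:**
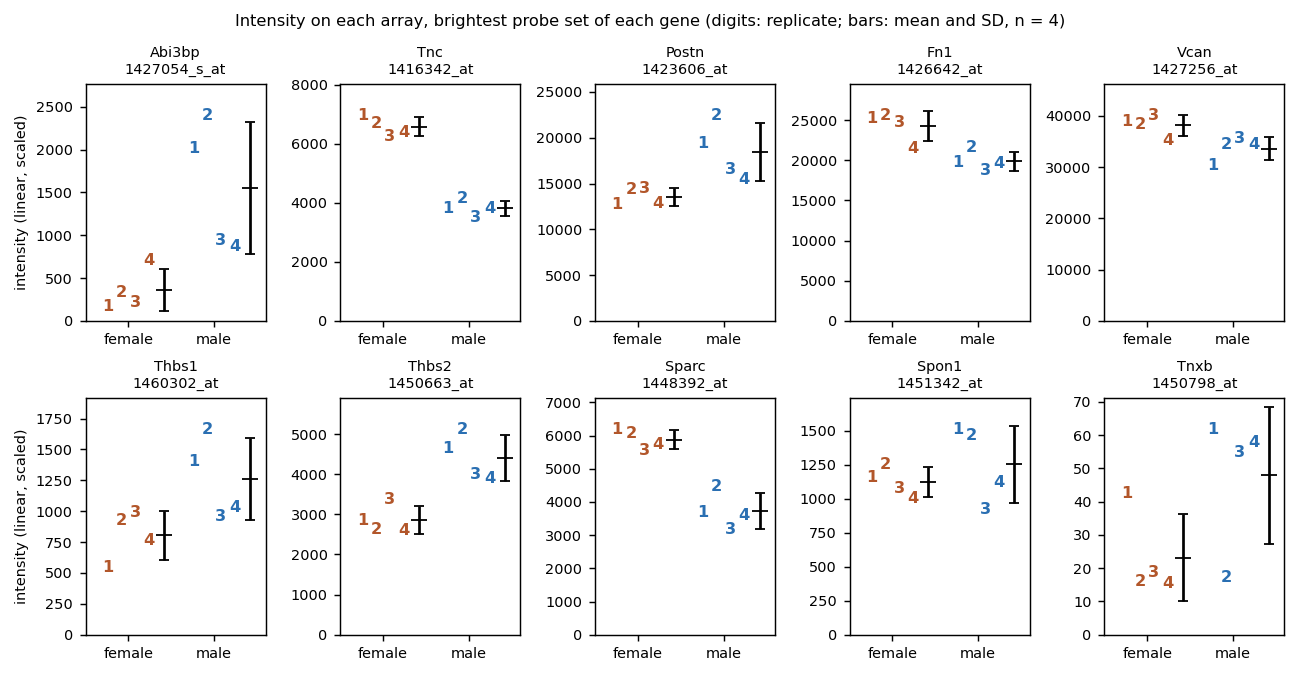
Linear intensity of the brightest probe set of each of the 10 genes on every array, with the replicate number as the symbol and the mean and SD of 4 arrays per sex beside it; each vertical axis starts at 0. Tnc and Sparc of all 4 males lie below all females, Abi3bp, Postn and Thbs2 of all males lie above all females, and Tnxb reads at most 61.8 on any array.

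RefSeq promoter windows of the build GRCm38.p6, from 250 bases before to 50 after a start site, were at hand for 6 of the 10 genes (8 windows). The windows of Postn, Thbs2, Tnc and Sparc are shown because the brightest probe sets of these genes had male and female ranges that did not overlap, Postn and Thbs2 with males above and Tnc and Sparc with males below. They lie at chr3:54360857-54361156 (plus strand), chr17:14694213-14694512, chr4:64046966-64047265 and chr11:55420031-55420330 (minus strand). Each is written 5′ to 3′ in the sense of the gene, and capitals mark matches to the motifs named after the sequences.
Postn: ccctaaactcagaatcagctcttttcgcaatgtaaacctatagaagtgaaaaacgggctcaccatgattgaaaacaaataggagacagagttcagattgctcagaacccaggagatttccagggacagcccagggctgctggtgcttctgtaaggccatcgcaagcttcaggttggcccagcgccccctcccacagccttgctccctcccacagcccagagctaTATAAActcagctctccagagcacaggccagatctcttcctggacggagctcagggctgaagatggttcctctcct
Thbs2: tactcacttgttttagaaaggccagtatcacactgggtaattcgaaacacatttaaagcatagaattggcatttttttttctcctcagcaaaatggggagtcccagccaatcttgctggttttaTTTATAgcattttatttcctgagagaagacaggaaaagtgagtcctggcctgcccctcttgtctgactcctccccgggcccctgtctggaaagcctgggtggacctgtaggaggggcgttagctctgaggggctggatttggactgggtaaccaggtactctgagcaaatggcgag
Tnc: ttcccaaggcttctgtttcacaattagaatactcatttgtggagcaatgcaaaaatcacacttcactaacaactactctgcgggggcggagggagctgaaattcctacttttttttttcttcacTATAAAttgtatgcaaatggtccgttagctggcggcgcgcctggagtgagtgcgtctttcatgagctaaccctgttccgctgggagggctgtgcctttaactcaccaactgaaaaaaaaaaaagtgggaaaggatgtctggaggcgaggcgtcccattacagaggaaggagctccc
Sparc: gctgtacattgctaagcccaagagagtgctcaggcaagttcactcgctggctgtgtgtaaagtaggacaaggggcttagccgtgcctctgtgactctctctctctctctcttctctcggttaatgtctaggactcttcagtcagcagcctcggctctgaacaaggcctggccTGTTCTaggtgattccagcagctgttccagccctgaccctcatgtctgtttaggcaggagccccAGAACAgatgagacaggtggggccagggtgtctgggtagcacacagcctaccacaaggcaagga

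4 motifs were searched on both strands: TATAAA (the TATA box), TGANTCA (AP-1), AGAACA (the half-site of androgen and glucocorticoid receptors) and GGAATG (TEAD factors). The Postn window shown holds TATAAA 26 bases before its start site. The Postn window not shown, at chr3:54359017-54359316, holds none of the 4 motifs. In the Tnc window shown TATAAA lies 126 bases before, and in the Thbs2 window it lies on the opposite strand, also 126 bases before. Among all 32851 windows 13.6% hold TATAAA, and among the 8 member windows 4 do, of which the 2 overlapping Tnc windows share 1 match. The Sparc window holds AGAACA 14 bases before the start and its reverse complement 78 bases before, a motif found in 19% of all windows and in 2 member windows (Sparc and Tnxb). TGANTCA was found in the Tnxb window (7.81% of all windows) and GGAATG in 0 of the 8 (14.7% of all). A match is only a run of letters in the window.

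Fibronectin, the adhesive protein whose fibrils seed the matrix, was among the brightest genes. On probe set 1426642_at the females read 25200, 25607, 24654 and 21474 (replicates 1 to 4) and the males 19783, 21546, 18705 and 19538. The ranges overlapped only through female replicate 4 and male replicate 2, and the male level was lower by a small margin. The difference on the log2(intensity + 16) scale was -0.28 ± 0.07 (SE of the limma fit), and the probe set was called. The second Fn1 probe set, 1437218_at, was dim, with 148.2, 413.1, 280.0 and 274.9 in females and 1076, 530.7, 720.6 and 305.9 in males. It was called in the opposite direction (1.14 ± 0.36), with overlapping ranges, and the call ended without female replicate 1 (0.88), male replicate 1 (0.86) or male replicate 3 (1.05).

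Versican, the hyaluronan-binding proteoglycan of embryonic mesenchyme, had 8 probe sets, 3 of them tested. The brightest, 1427256_at, read 38866, 38406, 40117 and 35116 in females and 30231, 34323, 35513 and 34367 in males, which is a small shift with an overlap of 1 female and 1 male array. Its difference was -0.18 ± 0.07, and the call ended without any 1 of 6 arrays (all but female replicate 4 and male replicate 3; differences of -0.13 to -0.22 over the 8 fits). Probe set 1427257_at showed the opposite: 5533, 7886, 6704 and 7731 in females against 14024, 9333, 15916 and 7985 in males, with no overlap and a called difference of 0.72 ± 0.20. The remaining tested one, 1421694_a_at, did not differ beyond its spread (-0.07 ± 0.16), with females at 9873 to 11756 and males 1 and 3 at 12754 and 13556 above them and males 2 and 4 at 8785 and 7784 below. The other 5 versican probe sets were below the filter, at 4.85 to 331.9 over all arrays.

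Periostin, a fasciclin-domain protein of fibroblasts that binds collagen and tenascin C, had 1 probe set and was bright. It read 12662, 14305, 14485 and 12782 in females and 19348, 22459, 16486 and 15437 in males. Every male was above every female, by 1.36-fold between the means (13559 ± 969.9 in females and 18432 ± 3152 in males, SD, n = 4). The difference was 0.43 ± 0.11 and was called, also without each array in turn (0.33 to 0.51).

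Abi3bp, a matrix protein with fibronectin type III domains, had the largest difference of the group. Probe set 1427054_s_at read 173.1, 335.2, 211.6 and 709.7 in females and 2019, 2402, 935.8 and 864.1 in males. All males were above all females, but the gap between female replicate 4 and male replicate 4 was narrow. Its difference was 2.14 ± 0.42, called, and 1.88 to 2.53 without each array in turn. The s suffix marks probes that can detect more than 1 transcript. The dimmer 1427053_at, below the filter, moved alike, with 20.0, 57.6, 55.8 and 117.6 in females and 436.0, 657.1, 227.6 and 259.7 in males (2.41 ± 0.45 in the fit without a filter).

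Tenascin C, a large glycoprotein that weakens adhesion to fibronectin, went the other way with little spread. On 1416342_at the females read 6966, 6694, 6248 and 6381 and the males 3796, 4135, 3510 and 3813. The ranges lay far apart, with means of 6572 ± 323 in females and 3814 ± 255 in males (SD, n = 4), 1.72-fold higher in females. The difference was -0.78 ± 0.09, called, and -0.74 to -0.82 without each array in turn. A second Tnc probe set, 1456344_at, was dim at 226.5 to 408.2 in females and 245.3 to 435.2 in males and was not called (0.12 ± 0.25). Tenascin X (Tnxb), a relative that organises collagen fibrils in skin, read 42.6, 15.99, 18.6 and 15.5 in females and 61.8, 17.2, 54.7 and 57.7 in males, below the filter. Its level was too low for a comparison of the sexes.

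The thrombospondins, calcium-binding glycoproteins that inhibit the growth of blood vessels, read higher in males on their brighter probe sets. Thbs2, which also shapes collagen fibrils, read 2846, 2630, 3370 and 2594 in females and 4630, 5121, 3984 and 3899 in males on 1450663_at. No male fell into the female range, and the difference of 0.62 ± 0.13 was called. The x-suffixed 1447862_x_at, whose probes can cross-hybridize, gave 1337, 1256, 1785 and 2126 in females and 2839, 2660, 2945 and 2189 in males (0.73 ± 0.18, called), again without overlap. The dim 1422571_at was not called and overlapped (-0.14 ± 0.18), with 565.8 to 855.4 in females and 529.9 to 700.2 in males.

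Thbs1, which also activates latent TGF-beta, read 541.3, 923.2, 990.4 and 762.5 in females and 1399, 1664, 957.7 and 1028 in males on 1460302_at. Only male replicate 3 fell into the female range. The difference of 0.64 ± 0.23 was called, but the call ended without female replicate 1 (0.47), female replicate 4 (0.63), male replicate 1 (0.58) or male replicate 2 (0.50). The dimmer 1450377_at gave 172.0 to 203.3 in females and 382.5, 332.5, 395.7 and 166.0 in males 1 to 4. Its difference of 0.64 ± 0.27 was not called, and it was called without male replicate 4 (0.91). This probe set passed the filter only through its level in males.

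Sparc, a collagen-binding protein that loosens adhesion, was called in both directions by 2 probe sets. On the brighter, 1448392_at, the females read 6191, 6052, 5546 and 5725 and the males 3673, 4468, 3172 and 3595, all males below all females (-0.66 ± 0.11). On 1416589_at the females read 2215, 3057, 2254 and 2671 and the males 8581, 3771, 4753 and 3388, all males above all females (0.91 ± 0.24). Both calls remained without each array in turn, with differences of -0.59 to -0.76 and 0.63 to 1.08. Probe set 1458204_at of Sparc, was below the filter at 101.3 to 162.1. The deposited table thus gives no single direction for Sparc.

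F-spondin (Spon1), a protein of axon guidance and cell attachment, was not called on any of its 3 tested probe sets. The brightest, 1451342_at, read 1152, 1253, 1077 and 1003 in females and 1510, 1464, 917.3 and 1116 in males (0.13 ± 0.18), so that males lay both above and below the female range. The others had differences of -0.33 ± 0.21 (1424415_s_at) and 0.45 ± 0.49 (1441226_at). Without male replicate 1 the former became -0.50 and was called. The fourth, 1442613_at, was below the filter at 33.5 to 179.1.

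**Figure D2:**
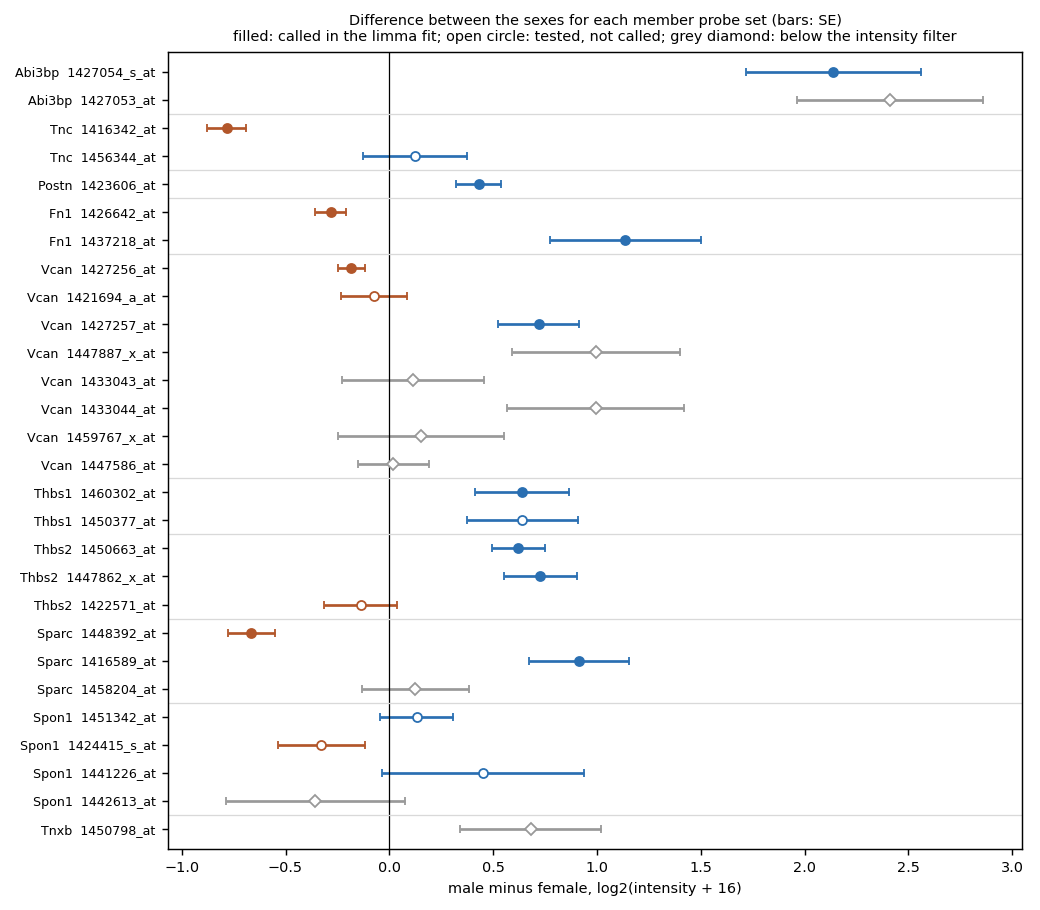
Male-minus-female difference on the log2(intensity + 16) scale for each of the 28 member probe sets, grouped by gene with the brightest first, with the SE as the bar; filled circles were called, open circles were tested and not called, and grey diamonds were below the intensity filter and come from the fit without a filter. Fn1, Vcan and Sparc each have filled circles on both sides of 0.

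Direction thus depended on the probe set for several members. Among the 4 member genes with at least 2 called probe sets, Fn1, Vcan and Sparc had calls in both directions and Thbs2 in 1 direction. Over the whole array 371 of 1512 such genes (24.5%) had calls in both directions. The ratio of 2 probe sets within the same array shows the disagreement without the scale factor of each array. Other differences between arrays can remain in it. For Sparc, the log2 ratio of 1416589_at to 1448392_at was -1.48 to -0.98 in females and -0.24 to 1.22 in males. Among males it was highest in replicates 1 and 3 (1.22 and 0.58), and was -0.24 and -0.09 in replicates 2 and 4. Males 1 and 3 were the arrays with the lowest Actb 3' to 5' ratios. They also had the highest median intensities (243.9 and 249.4, against 211.7 and 212.2 in males 2 and 4). The same held for the 3' 18S level (28985 and 33634 against 23300 and 21050). The ratio of Vcan 1427257_at to 1427256_at likewise was -2.81 to -2.18 in females, -1.11 and -1.16 in males 1 and 3, and -1.88 and -2.10 in males 2 and 4. For Fn1 1437218_at over 1426642_at the values were -7.26 to -5.90 in females, -4.18 and -4.67 in males 1 and 3, and -5.30 and -5.92 in males 2 and 4.

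Males 1 and 3 lay above males 2 and 4 in 9 of the 12 pairs examined, several of which share a probe set. Each numerator was the dimmer probe set of its pair. The share with this order among pairs of other genes was not counted, so nothing particular to these genes is read from it. The 3 pairs without that order were those of Tnc, of Abi3bp and of Thbs2 1422571_at. In the Abi3bp and Thbs2 pairs the order was reversed. For Abi3bp (1427053_at over 1427054_s_at) males 1 and 3 were at -2.17 and -1.97, and males 2 and 4 at -1.85 and -1.67. For Thbs2 males 1 and 3 were at -2.94 and -2.87, and males 2 and 4 at -2.84 and -2.56. The Tnc ratio (1456344_at over 1416342_at) was -4.79 to -3.91 in females and -3.87 to -3.20 in males, with males 2 and 3 highest. The Thbs2 ratio of 1422571_at to 1450663_at was lower in all males (-2.94 to -2.56) than in all females (-2.33 to -1.58). The Thbs1 ratio of 1450377_at to 1460302_at differed by 0.00 between the sexes on average, with -2.26 to -1.45 in females, -1.83 and -1.24 in males 1 and 3, and -2.27 and -2.52 in males 2 and 4. The positions of the probe sets along their transcripts were not used here, and the part of RNA length or of the other array measures in these ratios was not tested.

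**Figure D3:**
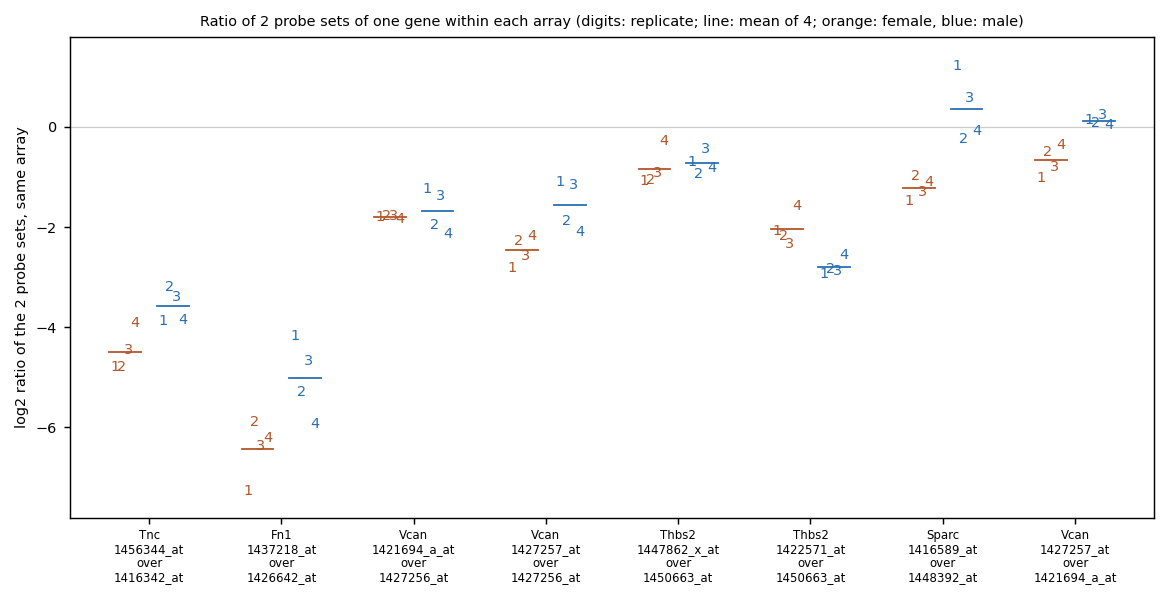
Log2 ratio of 2 probe sets of the same gene within each array, for Tnc, Fn1, Vcan, Thbs2 and Sparc; digits are replicate numbers, females in orange on the left and males in blue on the right of each pair, and lines are means of 4 arrays. The Sparc ratios of the males range from -0.24 to 1.22 and lie above all females, with replicates 1 and 3 on top.

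Within the males most of the brightest probe sets shared an order of the arrays. Both males 1 and 2 read above both males 3 and 4 on the brightest probe sets of Abi3bp, Postn, Fn1, Thbs1, Thbs2, Sparc and Spon1, 7 of 9 genes. Among the 19 tested member probe sets only these 7 had that order, which was found for 14.9% of all tested probe sets. Its share among the brightest probe sets of all genes was not counted. On 7 other member probe sets, of Fn1, Vcan (1421694_a_at and 1427257_at), Thbs1, Thbs2, Sparc and Spon1, males 1 and 3 were above males 2 and 4, an order found for 25.2% of all tested probe sets. The order was noticed after the values were seen and is a description of these 4 arrays. Without males 1 and 3 together, 7 member probe sets were called and 6 of the 12 earlier calls were among them. Abi3bp (2.17), Tnc (-0.72), Postn (0.46), Thbs2 1450663_at (0.65) and Sparc 1448392_at (-0.55) and 1416589_at (0.50, from 0.91) were called there. Calls ended for Fn1 1426642_at (-0.24) and 1437218_at (0.59, from 1.14), Vcan 1427256_at (-0.15) and 1427257_at (0.32, from 0.72), Thbs1 1460302_at (0.73) and Thbs2 1447862_x_at (0.60). With 2 male arrays left, fewer samples entered this fit, and Vcan 1421694_a_at was newly called lower in males (-0.41).

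Genes that work with these proteins were followed on 4 lists, each gene by its brightest tested probe set. Of 75 tested genes 19 were called with males higher and 16 with females higher, beside 14% and 28.2% of all genes. The lists were written with earlier results of these arrays known, so the counts are descriptions as well. Of the 35 calls, 24 remained without each array in turn and 30 without males 1 and 3.

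Other matricellular proteins had 4 of 15 tested genes called higher in males and 3 in females, with a median of -0.16. The largest rise was that of Ccn3, a CCN-family signalling protein, from 217.6 ± 55.1 to 649.3 ± 197 (SD, n = 4 per sex; 1.49 ± 0.25, limma adjusted p = 0.000895), on an x-suffixed probe set. Spock3, a testican proteoglycan, rose by 0.83 ± 0.20, and Efemp1, a fibulin of the elastic matrix, by 0.42 ± 0.14, a call that ended without any 1 of 4 arrays (0.31 to 0.51). Fbln1, a fibulin that binds fibronectin and versican, fell from 7602 ± 556 in females to 3704 ± 350 in males (-1.04 ± 0.10, limma adjusted p = 5.86e-05), while another of its probe sets was called in the opposite direction. Smoc1, a Sparc relative that modulates BMP signalling, was lower in males by -0.79 ± 0.17, and Fbln5, of elastic fibres, by -0.41 ± 0.12, which was not called without female replicate 1 or 3 (-0.32 to -0.49 over all fits).

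Adhesive glycoproteins and the hyaluronan network had 3 of 21 called higher in males and 4 in females, with a median of 0.05. Has2, the main hyaluronan synthase of embryonic mesenchyme and so the source of the ligand of versican, rose from 2135 ± 244 to 3044 ± 284 (0.51 ± 0.13, limma adjusted p = 0.00715). Fras1, a basement membrane protein, rose by 0.51 ± 0.12, and Egfl6, a matrix protein with EGF repeats, by 0.46 ± 0.10. Emilin2 and Emilin1, glycoproteins of elastic fibres, were lower in males (-1.06 ± 0.17 and -0.63 ± 0.15), as was Agrn, a basement membrane proteoglycan (-0.30 ± 0.08), with another Agrn probe set of the opposite sign that was not called.

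Receptors had 6 of 22 called higher in males and 5 in females, with a median of 0.04. Itgb1, the integrin beta chain shared by most fibronectin and tenascin receptors, rose from 4160 ± 482 to 8656 ± 484 (1.06 ± 0.10, limma adjusted p = 5.35e-05). Ptprz1, a receptor phosphatase that binds tenascins, rose by 1.17 ± 0.16, and Itga4, an alpha chain that binds fibronectin, by 0.83 ± 0.19. Itga9, the alpha chain that binds tenascin C, fell from 3075 ± 615 to 1667 ± 194 (-0.86 ± 0.15, limma adjusted p = 0.00117). Lrp1, an endocytic receptor that clears thrombospondins, was lower by -0.73 ± 0.17, with another probe set of the opposite sign that was not called, and Itgb5, a partner of the alpha v chain, by -0.72 ± 0.13.

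Proteases and processing enzymes had 6 of 17 called higher in males and 4 in females, with a median of 0.05. The 6 were Tll1, a tolloid protease of procollagen and chordin, and 5 of 6 tested Adamts genes, whose proteases cleave versican and its relatives. Tll1 rose from 470.3 ± 122 to 2279 ± 978 (2.13 ± 0.33, limma adjusted p = 0.000519), Adamts1 by 0.67 ± 0.18 and Adamts4 by 0.65 ± 0.22. Adamts15 (0.58 ± 0.15), Adamts5 (0.51 ± 0.16) and Adamts9 (0.37 ± 0.11) were named after their values were seen. Adamts20, which acts on versican in skin, differed by -0.11 ± 0.12 and was not called (limma adjusted p = 0.515). The calls of Adamts4, Adamts5 and Adamts9 ended without any 1 of 5, 3 and 2 arrays (0.49 to 0.82, 0.36 to 0.59 and 0.29 to 0.44), and a second probe set of Adamts5 and of Adamts9 went the other way without being called. Bmp1, the protease related to Tll1, was lower in males (-0.80 ± 0.14), as were Chst11, a chondroitin sulfotransferase (-0.65 ± 0.14), and Serpinh1, the collagen chaperone (-0.55 ± 0.08), with another Serpinh1 probe set of the opposite sign that was not called.

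**Figure D4:**
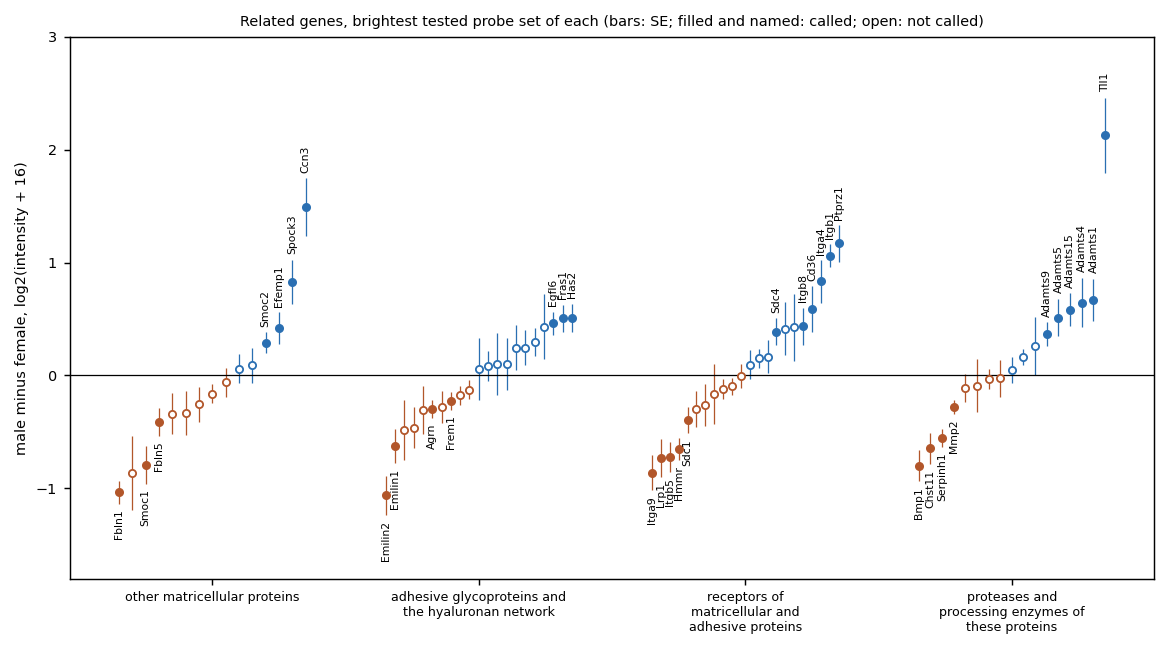
Male-minus-female difference on the log2(intensity + 16) scale for the tested genes of 4 related lists, 1 point per gene on its brightest tested probe set, with the SE as the bar; filled, named points were called. Ccn3, Itgb1, Ptprz1 and Tll1 lie above 1, and Fbln1 and Emilin2 lie below -1.

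The 18S control level, which followed sex, limits these values. With its 3' probe set as a covariate the SE of Abi3bp rose to 0.71 and that of Tnc to 0.18, 0 of the 19 tested member probe sets were called by limma (3 at an unadjusted p under 0.05), and 3 of the 35 related calls remained, those of Itgb1, Fbln1 and Smoc1. In that fit the differences of Abi3bp (1.40), Tnc (-0.68), Postn (0.36), Thbs2 (0.76 on 1450663_at) and Sparc 1448392_at (-0.53) kept their sign. So did those of Fn1 1426642_at (-0.22), Vcan 1427256_at (-0.14), Thbs2 1447862_x_at (0.58), Sparc 1416589_at (0.25, from 0.91) and Thbs1 1460302_at (0.31, from 0.64), while those of Fn1 1437218_at (-0.28) and Vcan 1427257_at (-0.07) turned.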

How the data were processed

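Intensity on Affymetrix MOE430 arrays was measured in 4 male and 4 female samples. The deposited intensity values are linear, 1 per probe set and array, and were made by the authors with GCOS (Affymetrix software for scanning and scaling), as the submitters' processing notes name it. Its version and settings are not given in the sources used here. Each array had the same 2%-trimmed mean (1500), so the deposited scaling was kept. Values were transformed as log2(value + 16), which understates differences of dim probe sets. After removal of the 64 controls, those with a mean at or above the median (7.77) were tested. That mean was taken over both sexes together, so a probe set could pass through its level in a single sex.

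Sexes were compared with limma (3.58.1, under R 4.3.3), lmFit and eBayes with trend, with sex alone in the model and Benjamini-Hochberg adjustment over 22519 probe sets at 0.05. Probe sets below the filter come from the same fit without a filter. Array measures were compared with exact permutation tests. Genes were named from probe sets with 1 platform symbol, 34945 in all; the 10 member symbols were all found in the RefSeq gene table. The brightest tested probe set stood for its gene; of each related list the called genes with the 3 largest differences in each direction were named. The members, lists, alternatives and the naming rule were chosen with earlier results of these data known. Among 28 array pairs, 0 were identical. The fit was tested on simulated data with known answers, made with independent noise and no array effect. That test therefore says nothing about array measures that follow sex. Alternatives were another normalization, pseudocounts of 1 and 64, other filters and variance models, weights per array, a block for the replicate number, the 18S level as a covariate, leaving out arrays, and other ways of representing a gene; the middle 18S probe set as a covariate was added after the data were seen.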

Additional observations from a re-analysis of the deposited data

Results flagged for a closer look

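Of 56 groups of 4 arrays (28 probe sets in each sex), 5 had an array far from the other 3 by Dixon's criterion on the log2 scale, where chance gives about 1 in 20. All 5 were on probe sets below the intensity filter. Male replicate 3 was high on Vcan 1459767_x_at (70.2) and low on Spon1 1442613_at (33.5), and it is also the male array with Xist signal. Female replicate 2 was low on Vcan 1447586_at (4.85). On the Tnxb probe set, female replicate 1 was high (42.6) and male replicate 2 was low (17.2).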

How the results depend on the processing

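Over the 19 tested member probe sets, 371 differences were recomputed under the alternatives: 314 kept direction and side of the threshold, 44 lost the call, 4 gained one and 9 turned. Of those that turned, 2 were of called probe sets, both with the 3' 18S level as a covariate: Fn1 1437218_at to -0.28 and Vcan 1427257_at to -0.072. The other 7 were of probe sets not called in either fit: Tnc 1456344_at to -0.049 with quantile normalization and -0.040 without male replicate 2 (-0.040 to 0.30 over the 8 arrays left out in turn), Vcan 1421694_a_at to 0.0088 without male replicate 2 and 0.067 without male replicate 4 (-0.20 to 0.067), Thbs2 1422571_at to 0.085 and 0.0085 with the 3' and the middle 18S covariate, and Spon1 1441226_at to -0.52 without males 1 and 3. With that covariate limma called 414 probe sets of the array, 0 member probe sets (3 at an unadjusted p under 0.05) and 0 member genes; the cause was not tested. The middle 18S probe set as a covariate left 7 member probe sets called. Without males 1 and 3 together 7 member probe sets and 5 member genes were called. Without the variance trend 5 member genes were called, and with the mean of a gene's probe sets 4 (Abi3bp, Postn, Thbs1 and Thbs2). The upper-quartile filter tested 11260 probe sets and called 5890. The count of called member probe sets was 9 to 12 without each array in turn. With the replicate number as a block (replicate block) 9 of 19 were called. The labels do not say that the numbers pair samples, and same-numbered arrays had residual correlations of -0.13, -0.08, 0.04 and -0.03. No male array correlated best with the female array of its own number. The block ended the calls of Fn1 1437218_at, Vcan 1427256_at and Thbs1 1460302_at and changed no other member call. Intensities near the background limit Tnxb, the dim Vcan and Spon1 probe sets and Fn1 1437218_at.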

Other observations

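Probe set 1421811_at is annotated to both Pald1 and Thbs1 and was therefore not counted as a member. It was brighter than the Thbs1 probe sets of their own and read 5739, 5811, 7814 and 8629 in females and 11140, 11315, 11965 and 10620 in males, all males above all females (0.71 ± 0.13, SE; limma adjusted p = 0.00131). Which of the 2 genes gave this signal was not tested.

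Among related genes below the filter, Ccn5, a CCN-family protein of fibroblasts and smooth muscle, read 43.6 ± 13.8 in females and 220.9 ± 103 in males (SD, n = 4), and Thbs4, a thrombospondin of tendon and muscle, 131.2 ± 32.5 and 241.9 ± 70.5. Fbln7, a fibulin, read 197.1 ± 28.6 in females and 79.6 ± 24.2 in males. These 3 were picked after their values were seen and were not tested.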
